A study of Homo sapiens with 2 samples.

Results

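The genes described here were 45 members of the cell death machinery. They were the BCL2 family, the caspases with their adaptors and inhibitors, and genes listed as targets or regulators of the tumour suppressor p53. The rule takes them by gene name and uses no measured value, though the list was drawn up with earlier results of these arrays known, and 44 of them were found among the 30484 gene names of the array. XIAP, an inhibitor of caspases, was the member not found under its current name. RNA was compared between SAS cells, a squamous carcinoma cell line of the human tongue, and eSAS cells, a population derived from the same line after 5 rounds of selection for large spheroids with Spheroid Catch, a filter tool with a removable membrane. Both RNAs came from cells in the logarithmic phase of growth, the labels name no transgene or drug for either, and eSAS was a selected population of this 1 line. Each population was hybridised to 1 one-colour Agilent array, so that no difference below has a replicate check and no test was made.

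Apoptosis is decided at the mitochondrion, where survival proteins of the BCL2 family hold back the pore-forming proteins BAX and BAK1 until BH3-only proteins neutralise them. Cytochrome c then leaves the mitochondrion, assembles with APAF1 and starts a cascade of caspases, the proteases that dismantle the cell. p53 feeds into this pathway by inducing BH3-only genes, and it also arrests the cell cycle through CDKN1A. The inflammatory caspases stand apart from this cascade, since they process cytokines or open membranes in the response to infection.

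A level is the processed signal of a probe, which is a fluorescence intensity in arbitrary units, and levels were not compared between probes. A log2 ratio is eSAS over SAS after each array was divided by its 75th percentile (1242 for SAS and 1196 for eSAS), and a gene's ratio is the mean over its probes well above background on both arrays. Well above background were 69.4% of the probe spots for SAS and 67.5% for eSAS, and no spot was saturated. Spots of the same probe had an SD of 0.081 in log2 ratio over 211 probes, and different probes of a gene had an SD of 0.20 over 5334 genes, or 1.15-fold. All 10 epithelial markers found by name were well above background on both arrays. Among them were KRT5 and KRT14, and KRT6A was dim, at 46.9 in SAS cells and 32.7 in eSAS cells. Of 5 leukocyte markers, CD68 and CD14 were also well above background on both arrays, while PTPRC and CD3E were not on either. Of 5 fibroblast markers 1 was well above background on each array, and of 4 endothelial markers 2 were for SAS and 1 for eSAS. KRT14, a basal keratin, had a log2 ratio of -3.90, and its part in the differences below was not tested.

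Of the 45 members, 43 were measured on both arrays. CASP14, a caspase of cornifying epidermis, was not well above background, with signals of 7.20 in SAS cells and 6.21 in eSAS cells. At least 1.5-fold higher in eSAS cells were 4 of the 43, or 9.30%, and over all 19467 genes measured the share was 3.19%. These were CASP1, CASP4, CASP5 and BIRC3, and a change in the share of cells of some state cannot be told apart here from a change in RNA per cell. At least 1.5-fold lower was 1 member, GADD45B, or 2.33%, where the share over all genes was 4.99%. At a limit of 1.4-fold, chosen after the values were seen, 6 members were higher and 2 lower, where 4.61% and 6.81% of all genes were. No member differed by 2-fold, which 1.01% of all genes did upwards and 1.37% downwards. The median log2 ratio of the members was -0.0032 (SD 0.32) and that of all genes was -0.0012 (SD 0.37). Most members lay near 0, since 27 of the 43 differed by less than the SD between probes of a gene.

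**Figure D1:**
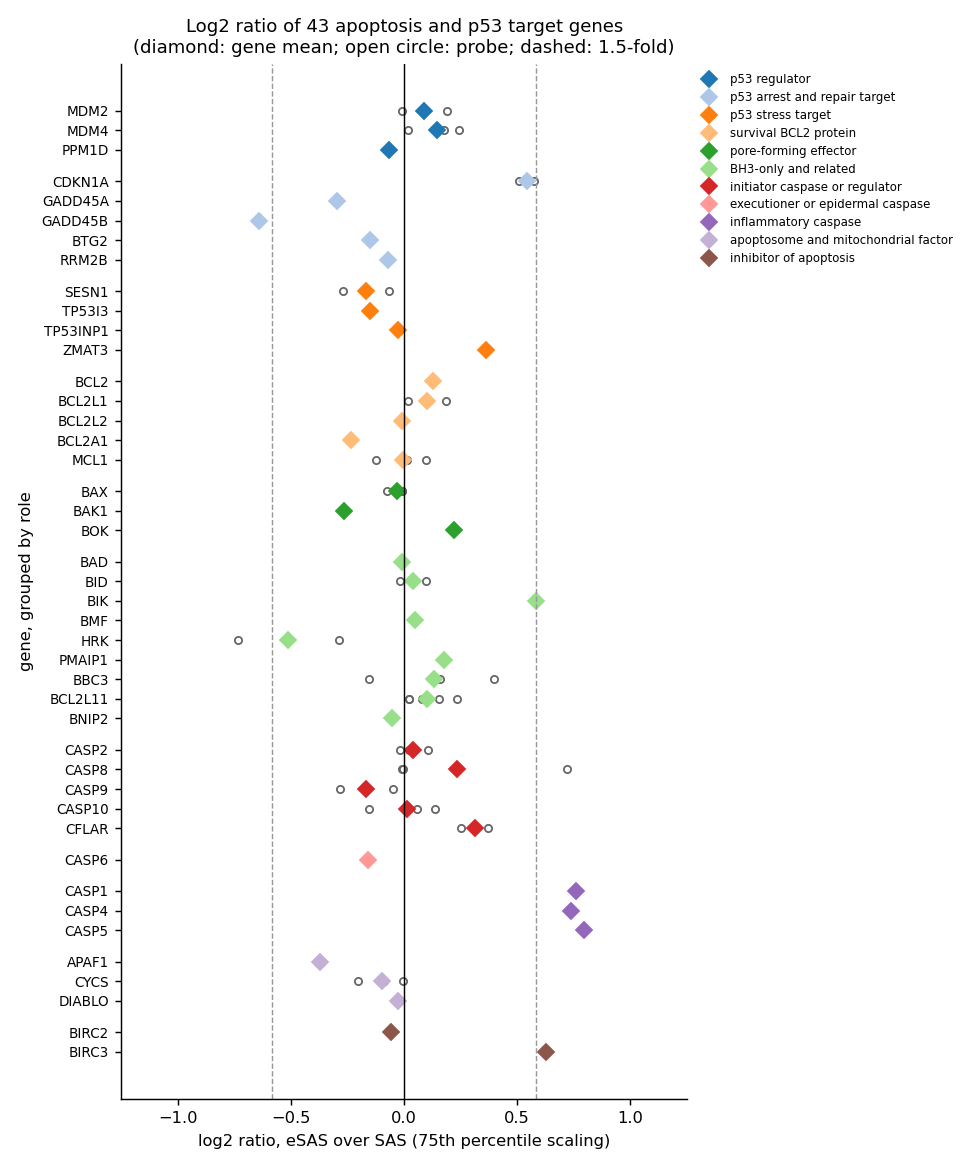
Log2 ratio of eSAS over SAS for the 43 measured members, grouped by role; diamonds are gene means, open circles are the probes of genes with more than 1 probe, and dashed lines mark 1.5-fold. The 3 inflammatory caspases and BIRC3 lie beyond the right line, GADD45B lies beyond the left line, and BIK lies at the right line.

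**Figure D2:**
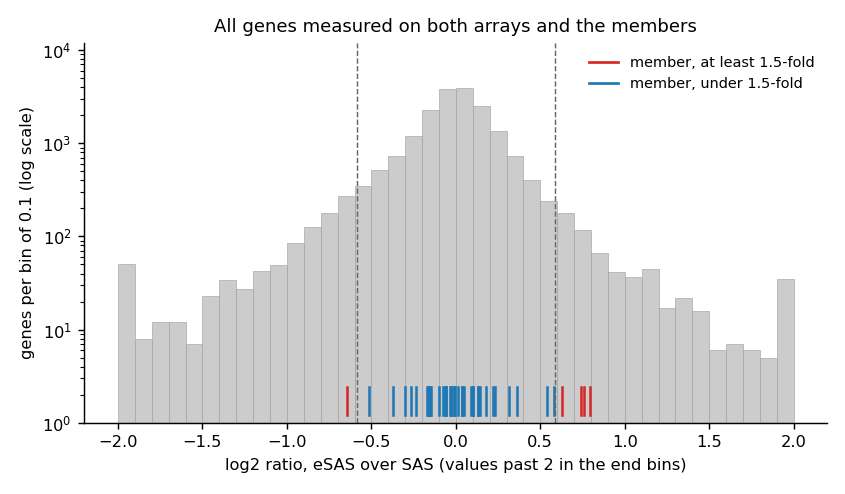
Number of genes per bin of 0.1 in log2 ratio (log scale) over all 19467 genes measured, with values past 2 in the end bins, and the 43 members as ticks below (red at least 1.5-fold, blue under it). The ticks crowd around 0 and none lies past 2-fold.

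The clearest block of higher genes was the inflammatory caspases, all 3 of which were higher in eSAS cells. CASP1 cuts the precursors of interleukin-1β and interleukin-18, and CASP4 and CASP5 sense bacterial lipopolysaccharide in the cytosol. CASP1 had a signal of 721 in SAS cells and 1176 in eSAS cells, a log2 ratio of 0.76 or 1.70-fold. CASP4 was measured by 2 probes, which went from 11625 to 18603 and from 12157 to 19598. Both CASP4 probes were thus higher in eSAS cells by nearly the same factor, with log2 ratios of 0.73 and 0.74 and a mean of 1.67-fold. CASP5 went from 3428 to 5728, a log2 ratio of 0.80 or 1.74-fold. These 4 probes lay in rows 79, 190, 214 and 410 of the array, and none of their spots was marked as defective. The 8 spots nearest to the CASP1 and CASP5 probes had median log2 ratios of 0.27 and 0.44, and those nearest to the CASP4 probes had -0.16 and 0.0042. When the median of the 100 nearest spots was subtracted, the 3 gene ratios were 0.79 for CASP1, 0.79 for CASP4 and 0.80 for CASP5. CASP4 and CASP5 fell short of 1.5-fold in 2 of 16 alternative settings, both normexp background corrections fitted on all spots, with a lowest log2 ratio of 0.16 for CASP4 and 0.33 for CASP5. CASP1 was past 1.5-fold in all 16, but it has 1 probe of 1 spot, well above background on both arrays. Filters, marked spots and probe summary could therefore not change its value. Leaving out a band of array rows did not change the CASP1 ratio either. Subtracting the median of the nearest spots moved that ratio from 0.76 to 0.79. With normexp on all spots, 52.4% of all genes were at least 1.5-fold higher. The inflammatory caspases are close relatives in sequence, and whether the probes also bind each other's transcripts was not tested.

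The upstream sequences of CASP4 and CASP5 are shown because these neighbouring genes moved by almost the same factor. CASP1 lay between them in log2 ratio (0.76), but it was among the members for which no sequence was matched. Each is the 250 bases before the annotated start of transcription from RefSeq (GRCh38.p14), read 5′ to 3′ on the minus strand, at chr11:104968575-104968824 for CASP4 and chr11:105023169-105023418 for CASP5. Capitals mark matches to 2 motifs of cytokine-responsive factors searched on both strands, the core of the interferon-stimulated response element (GAAA and GAAA with any 2 bases between them) and the STAT element TTCNNNGAA.
CASP4: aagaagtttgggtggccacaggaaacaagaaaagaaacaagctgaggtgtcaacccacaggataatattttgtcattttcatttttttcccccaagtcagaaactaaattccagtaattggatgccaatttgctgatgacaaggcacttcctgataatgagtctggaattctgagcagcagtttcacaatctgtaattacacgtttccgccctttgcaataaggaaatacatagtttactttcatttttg
CASP5: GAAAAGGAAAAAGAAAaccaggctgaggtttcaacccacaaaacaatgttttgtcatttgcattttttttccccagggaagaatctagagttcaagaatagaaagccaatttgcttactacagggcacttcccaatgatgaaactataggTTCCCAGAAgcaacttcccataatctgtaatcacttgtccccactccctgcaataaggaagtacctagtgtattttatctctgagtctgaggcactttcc
After alignment, 174 bases, or 69.6% of the window, were identical between them, the highest of 666 pairs of member sequences, where the median pair shared 48.0% and the next, CASP6 with CDKN1A, 58.8%. The CASP5 sequence held 2 overlapping matches to the interferon element, from 250 to 241 and from 244 to 235 bases before the start, and a match to TTCNNNGAA from 100 to 92 bases before it. Neither these 2 motifs nor the other 4 searched (the NF-kB consensus, the p53 decamer, the AP-1 element TGANTCA and the TATA element TATAAA, both strands) occurred in the CASP4 window. Of all 27305 promoters of this length, 3.07% held the interferon element and 6.78% held TTCNNNGAA. Among the 37 members with a sequence, 2 held the former and 3 the latter, counts too small to be read against these shares. A match is a stretch of letters and does not show that a factor binds there.

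The inflammatory caspases and 2 members of the inhibitor of apoptosis family, BIRC2 and BIRC3, lie within a few megabases on the long arm of chromosome 11. On hg18, the build of the array's coordinates, the probes lie at chr11:101713566-101713625 for BIRC3, chr11:104318839-104318898 and chr11:104320702-104320761 for CASP4, chr11:104373352-104373411 for CASP5 and chr11:104402268-104402812 for CASP1. Between 500 kb before BIRC3 and 500 kb past CASP1, 21 gene names were measured on both arrays. The 5 members among them had log2 ratios from -0.057 to 0.80. Of the 16 others, 3 were at least 1.5-fold higher, 1 was lower (C11orf70, -0.92), and the median was 0.12. Of the 3 higher genes, 2 were next to CASP1, under the array's names COP1 and INCA. COP1, now called CARD16, encodes a caspase-recruitment-domain protein related to CASP1, and it went from 155 to 279, a log2 ratio of 0.90. Its probe is assigned by the array design to transcripts of CASP1 as well, so it is not a separate measurement of CARD16. INCA, whose probe was dim in SAS cells, went from 66.4 to 142, a log2 ratio of 1.15. The INCA spot lies in row 458, inside the band of rows 450 to 510 that held 196 of the 267 defective probe spots of the SAS array and 10 of the 86 of the eSAS array. The third was MMP7, a matrix metalloproteinase, with a log2 ratio of 0.66. All 5 gene names measured from CASP4 through INCA were therefore higher in eSAS cells, by 0.74 to 1.15. Between them and BIRC3 the ratios were mixed, with BIRC2 at -0.057, MMP3 at 0.32 and DYNC2H1 at -0.23.

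**Figure D3:**
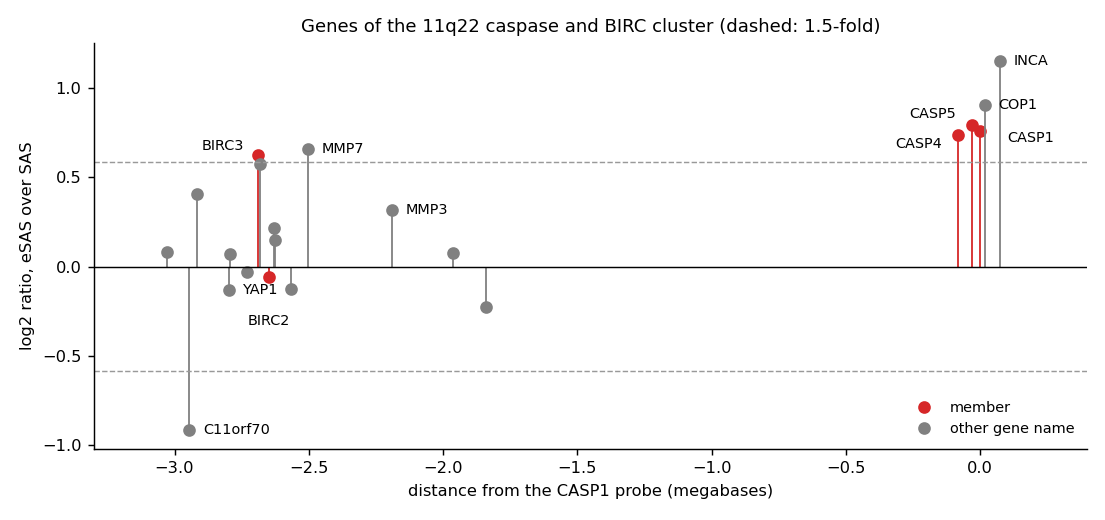
Log2 ratio of eSAS over SAS for the 21 gene names measured between 500 kb before BIRC3 and 500 kb past CASP1, against the distance in megabases from the CASP1 probe; red marks members, grey other genes, and dashed lines 1.5-fold. The group from CASP4 to INCA stands above the upper line, while the genes around BIRC2 lie on both sides of 0.

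BIRC3 encodes a ubiquitin ligase that holds back caspase-8 activation at the tumour necrosis factor receptor and is a classical target of NF-kB. It went from 65.3 in SAS cells to 97.0 in eSAS cells, a log2 ratio of 0.63 or 1.54-fold. The probe was dim on both arrays. Its log2 ratio ranged from 0.34 to 2.25 over 16 alternative settings. The ratio was below 1.5-fold in 3 of them (no scaling, no background correction and normexp without marked backgrounds). Filters and probe summary could not change it, since BIRC3 has 1 probe of 1 spot. Leaving out a band of array rows did not change the BIRC3 ratio either. Subtracting the median of the nearest spots moved that ratio from 0.63 to 0.61. A probe with no gene name that lies just past the BIRC3 probe had a log2 ratio of 0.58. BIRC2, its neighbour and close homologue, had signals of 1438 and 1332. The array's older name for XIAP, BIRC4, had signals of 1161 and 853, a log2 ratio of -0.39 or 1.31-fold lower, which went against the direction of BIRC3. The 250 bases before the start of BIRC3 (GRCh38.p14, chr11:102317234-102317483, plus strand) are shown with 2 matches to the NF-kB consensus in capitals.
BIRC3: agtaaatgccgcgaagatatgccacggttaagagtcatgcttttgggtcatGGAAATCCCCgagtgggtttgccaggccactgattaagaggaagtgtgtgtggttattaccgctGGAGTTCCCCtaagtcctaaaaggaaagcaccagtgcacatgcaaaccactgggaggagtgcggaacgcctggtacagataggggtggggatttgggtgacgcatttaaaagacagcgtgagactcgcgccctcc
The matches lay from 199 to 190 and from 135 to 126 bases before the start. The NF-kB consensus was found in 5.05% of all promoters and in 4 of the 37 member sequences, the others being BMF, CFLAR and CASP14. Of these, CFLAR had a log2 ratio of 0.31, BMF of 0.050, and CASP14 was not measured.

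Because BIRC3 is an NF-kB target, a list of other NF-kB target genes was read on the same arrays. Of 22 listed, 21 were measured, 5 were at least 1.5-fold higher in eSAS cells and 0 were lower. The log2 ratios ran from -0.23 to 1.11, with a median of 0.13. The list held none of the 45 members, so GADD45B, the member that was lower, was not counted in it. Over all genes, 3.19% were higher and 4.99% lower by this limit, and the counts depend on which targets were listed. The 5 were secreted or surface proteins of inflammation. CCL20, a chemokine, went from 58.9 to 122 (log2 ratio 1.11), and ICAM1, an adhesion receptor for leukocytes, from 880 to 1491 (0.81). IL6 went from 1378 to 2153 (0.70), the chemokine CXCL1 from 1017 to 1576 (0.69) and CD83 from 267 to 390 (0.60). The list was chosen with earlier results of these arrays known, and 16 of its 21 measured genes were under 1.5-fold.

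Of the 5 members listed as p53 targets of arrest and repair, 1 was past 1.5-fold, 4 had a log2 ratio below 0 and 1 had one above it. The grouping is that of the list, and whether p53 acts on GADD45B in these cells was not tested. GADD45B, a stress sensor that acts on p38 and JNK signalling, was the only member at least 1.5-fold lower in eSAS cells. Its 2 probes went from 951 to 589 and from 6304 to 3873, and both were thus lower, with log2 ratios of -0.64 and -0.65 and a mean of 1.56-fold. They lie at chr19:2428070-2428129 and chr19:2429178-2429237 on hg18, and the gene was past 1.5-fold in all 16 alternative settings, between -0.70 and -0.60. Its upstream sequence (GRCh38.p14, chr19:2475877-2476126, plus strand) is shown because both probes of the gene were lower, with the TATA element, TATAAA, in capitals.
GADD45B: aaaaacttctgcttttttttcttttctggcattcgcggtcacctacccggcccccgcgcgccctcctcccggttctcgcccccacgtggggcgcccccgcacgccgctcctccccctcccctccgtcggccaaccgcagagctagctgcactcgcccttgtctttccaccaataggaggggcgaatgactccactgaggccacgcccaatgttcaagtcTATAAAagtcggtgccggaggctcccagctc
The element lay from 31 to 26 bases before the start, and 3 of the 37 member sequences and 11.1% of all promoters held these letters. The p53 decamer, present in 5.53% of all promoters and in 1 member sequence, that of BAK1, was not among the letters of this window. GADD45A, the related gene that p53 induces through its intron, had signals of 9638 and 7546, a log2 ratio of -0.30.

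CDKN1A encodes p21, the inhibitor of cyclin-dependent kinases that carries out p53-dependent arrest, and it was measured by a probe printed in 10 spots. Its spots ranged from 1959 to 2283 in SAS cells (median 2095) and from 2853 to 3218 in eSAS cells (median 2991). The 2 ranges did not overlap after scaling, and all 10 spots had a log2 ratio above 0, from 0.55 to 0.61 with a mean of 0.57 ± 0.021 (SD over 10 spots of 1 array pair). Such an SD covers the printing and reading of spots and not the cultures. The other CDKN1A probe went from 139 to 190, a log2 ratio of 0.51. The mean of both, 0.54 or 1.46-fold, lay just under the 1.5-fold limit, and it ranged from 0.46 to 1.02 over the 16 alternative settings.

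The other p53 targets lay closer to 0. BTG2, an antiproliferative gene, had signals of 1385 and 1203, and RRM2B, the p53-induced subunit of ribonucleotide reductase, had 339 and 310. SESN1, a sestrin of the antioxidant response, had log2 ratios of -0.27 and -0.069 at its 2 probes. TP53I3, a quinone oxidoreductase, had -0.15, and TP53INP1 had -0.027. ZMAT3, an RNA-binding protein, went from 66.2 to 82.0, or 0.36. Of the regulators that keep p53 low, MDM2, its ubiquitin ligase, had a gene ratio of 0.09, its partner MDM4 had 0.14 and the phosphatase PPM1D had -0.066. The MDM2 probe with 8 usable spots read 68.0 to 74.3 in SAS cells and 69.1 to 86.6 in eSAS cells, and 7 of the 8 spot ratios were above 0. The regulators thus differed by less than the SD between probes of a gene. In a list of 34 further p53 targets, 30 were measured, with a median of 0.022 and a highest log2 ratio of 0.41. Of these, 0 were at least 1.5-fold higher and 2 were lower, where 3.19% and 4.99% of all genes were. Among the 2 lower was SFN, the 14-3-3 sigma protein of epithelia, which went from 4987 to 3193 (-0.59).

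**Figure D4:**
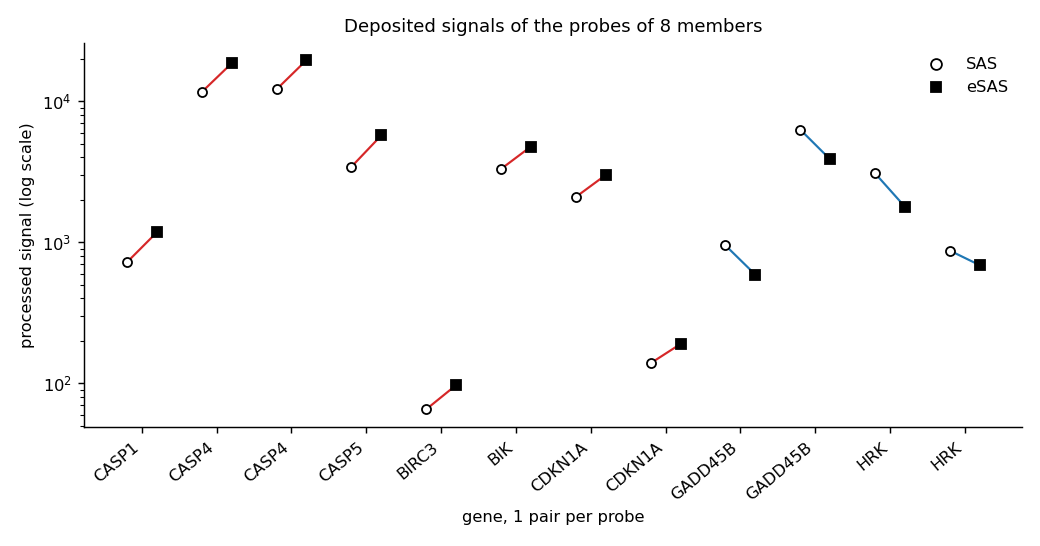
Processed signal (log scale, arbitrary units) in SAS (open circles) and eSAS (squares) cells for each probe of the 5 members past 1.5-fold and of BIK, CDKN1A and HRK near it; red lines join pairs that are higher in eSAS and blue lines those that are lower. Probes of CASP4, CDKN1A, GADD45B and HRK run the same way within each gene.

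The 5 survival proteins of the BCL2 family showed no member past 1.5-fold and a median log2 ratio of -0.0032. BCL2 itself had signals of 1305 and 1374 at the probe that could be read, and its other probe was well above background in 2 of 8 usable spots in SAS cells and in 0 of 8 in eSAS cells. BCL2L1, which encodes BCL-xL, was read by 10 spots that ranged from 635 to 766 in SAS cells and from 709 to 798 in eSAS cells. All 10 spot ratios were above 0 with a mean of 0.19 ± 0.046 (SD), and the ranges overlapped after scaling. The other BCL2L1 probe had a log2 ratio of 0.017, so the gene mean was 0.10. MCL1, the short-lived survival protein, had log2 ratios from -0.12 to 0.099 over 3 probes, and BCL2L2 had -0.0096. BCL2A1 probes disagreed. One BCL2A1 probe, in row 473, went from 1413 to 1158, and the other was not well above background in SAS cells (2.95) and read 19.3 in eSAS cells, at least 1.57-fold higher. With no filter on dim probes BCL2A1 would be counted among the higher members.

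The effectors that open the outer mitochondrial membrane were close to level. BAX was measured by 3 probes with log2 ratios from -0.077 to -0.0083, and the 10 spots of one of them had a mean of -0.0083 ± 0.029 (SD). BAK1 had signals of 3324 and 2665, a log2 ratio of -0.26, and BOK had 3153 and 3534, or 0.22.

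Among the 9 BH3-only and related genes, 0 were past 1.5-fold and the median was 0.050, but the genes at both ends lay near the limit. BIK, which acts at the endoplasmic reticulum, went from 3309 to 4776, a log2 ratio of 0.58 just under the limit. It passed the limit in 2 of the 16 alternative settings, which were centring on the median and quantile normalization, and it ranged from 0.15 with normexp on all spots to 0.62. HRK, an inhibitor of BCL-xL best known from neurons, had 2 probes that went from 3085 to 1785 and from 872 to 687. Both HRK probes were lower in eSAS cells but by different amounts, -0.74 and -0.29, and the mean was 1.43-fold lower. PMAIP1, the p53 target NOXA, was read by 10 spots from 1115 to 1188 in SAS cells and from 1206 to 1320 in eSAS cells. The PMAIP1 ranges did not overlap after scaling, and the mean log2 ratio was 0.18 ± 0.044 (SD), which is a small difference against the SD of 0.20 between probes of a gene. BBC3, the p53 target PUMA, had probes at -0.15, 0.16 and 0.40, so its direction was not settled. BCL2L11, which encodes BIM, had 5 probes between 0.020 and 0.23. BAD, BID, BMF and BNIP2 lay between -0.056 and 0.050.

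**Figure D5:**
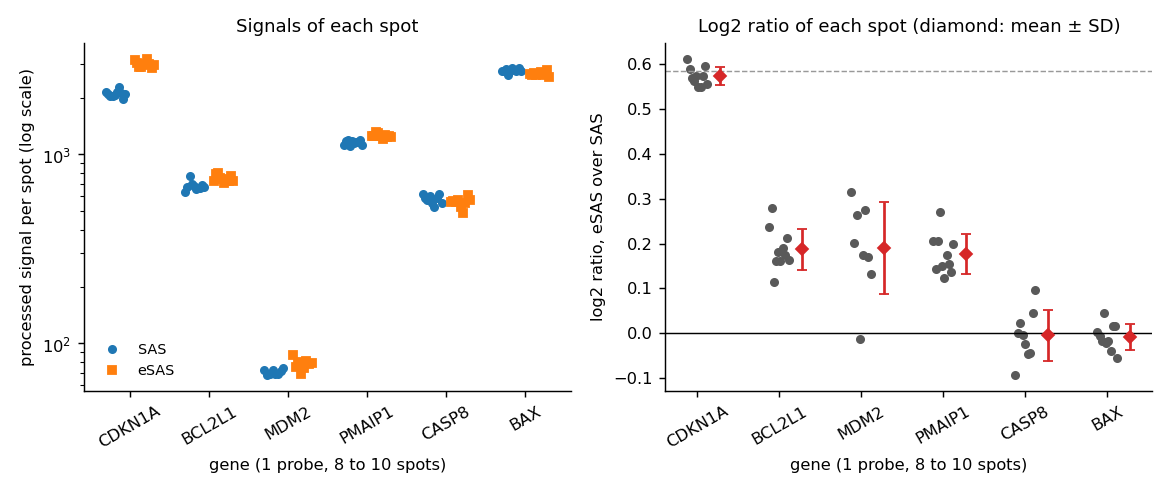
Left, processed signal (log scale) of each spot for the 6 member probes printed in 10 spots and above background, in SAS (circles) and eSAS (squares) cells; right, log2 ratio of each spot, with the mean and SD over spots as a diamond and bar and 1.5-fold as a dashed line. CDKN1A stands near the line, BCL2L1, MDM2 and PMAIP1 lie near 0.2, and CASP8 and BAX lie at 0.

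None of the apoptotic caspases measured was past 1.5-fold as a gene mean. CASP8, the initiator at death receptors, was read by 9 usable spots of one probe, from 524 to 620 in SAS cells and from 489 to 612 in eSAS cells, with a mean log2 ratio of -0.0053 ± 0.056 (SD). The second CASP8 probe had -0.011. The third, near the end of the gene at chr2:201860083-201860142 on hg18, went from 413 to 655, or 0.72. The first probe lies close to it, at chr2:201859729-201859788, and the cause of the disagreement was not tested. CASP10 had log2 ratios from -0.15 to 0.13 at 3 probes, and CASP2 from -0.017 to 0.11 at 3 probes. CFLAR, which encodes the caspase-8 inhibitor FLIP, had 0.25 and 0.37 at its 2 probes, both above 0. CFLAR, CASP10 and CASP8 lie side by side on chromosome 2, and the 16 other gene names measured around them ran from -0.28 to 0.39 with a median of 0.017 and 0 past 1.5-fold. CASP9, the initiator that the apoptosome activates, had -0.28 and -0.051. CASP6, an executioner caspase, went from 1688 to 1455, or -0.16.

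The 3 apoptosome and mitochondrial factors were all slightly below 0. APAF1, the scaffold of the apoptosome, went from 101 to 75.1, a log2 ratio of -0.37 or 1.30-fold lower. CYCS, cytochrome c, had a gene ratio of -0.099 over 3 probes, and DIABLO, which displaces inhibitors from caspases, had -0.027. With normexp on all spots, where the median of all genes moved to 0.68, APAF1 was at 1.88 and CYCS at 0.41. Of 38 further names of apoptosis genes listed, 34 were on the array and 32 were measured. Some were older names of the same gene, and BIRC4, the older name of XIAP, was among the 32. None of the 32 was at least 1.5-fold higher, where 3.19% of all genes were. The 1 that was lower, where 4.99% of all genes were, was AIFM1, the mitochondrial apoptosis-inducing factor, from 13861 to 8271 (-0.69). The median of that list was -0.012.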

How the data were processed

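The RNAs of the 2 populations were hybridised to 2 one-colour Agilent arrays of 1 slide, 1 each, so array and population cannot be told apart. The deposited scanner files hold signal intensity per spot, extracted by the authors with Agilent Feature Extraction 10.7.3.1 and background-corrected in the processed signal; the deposited series table holds the same intensity values, as all 90030 were equal within a relative tolerance of 1e-06. From these, log2 processed signals of 43376 probe spots were taken relative to the 75th percentile of each array. Spots marked as non-uniform or outliers were left out (267 on SAS and 86 on eSAS, 5 of them member spots), spots of a probe were averaged, and the probes of a gene name that passed the software's background test on each array were averaged. Every one of the 45 members was named by rule, and of other lists the genes past 1.5-fold, except that some genes of these lists are not reported here. Where 1 array was dim, a fold was computed as a lower bound against the lowest signal well above background (12.8 on SAS, 15.2 on eSAS). The precision is limited by the number of arrays. The members and the lists were chosen with earlier results of these data known. Member sequences came from RefSeq (37 of 45 matched), with identities from global alignment. Calculations used Python 3.11.15 with pandas 2.3.3 and R 4.3.3 with limma 3.58.1. The counting of changed genes was run on signals simulated from the SAS array with planted 2-fold changes. That run checks the counting only and does not bear on calls near 1.5-fold. Alternatives in scaling, background, filters, probe summary, naming and array position were tried.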

Additional observations from a re-analysis of the deposited data

How the results depend on the processing

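No paired analysis was possible because each population had 1 array, and leaving out a replicate was not possible for the same reason. Over 16 alternatives, of which the subtraction of a local median was chosen after seeing the data, CASP1, CASP4, CASP5 and BIRC3 stayed above 0 and GADD45B below it. Several of the alternatives could not change a gene read by 1 spot, as CASP1, CASP5 and BIRC3 were. The same holds for CASP4 and GADD45B, each read by 2 probes of 1 unmarked spot. With normexp on all spots, with mean or with median pixels, 17 members were at least 1.5-fold higher and 2 lower (GADD45A and GADD45B). The median of the members was then 0.177 with mean and 0.178 with median pixels, the median of all genes with mean pixels was 0.68, and 52.4% of all genes were higher, so that 88.3% (mean pixels) and 88.5% (median pixels) of all calls were higher, against 39.0% in the setting reported. Normexp fitted after removing spots with a marked local background gave 3 higher members, without BIRC3, as did no scaling and no background correction. Centring on the median and quantile normalization gave 5, with BIK, and no filter on dim probes gave 5, with BCL2A1. The brightest probe per gene gave 2 lower members, GADD45B and HRK. A limit of 1.4-fold, chosen after seeing the data, gave 6 higher and 2 lower members. The dim genes BIRC3, ZMAT3, CFLAR and APAF1 moved toward 0 with normexp without marked backgrounds, to 0.34, 0.19, 0.15 and -0.22.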
